A study of Mus musculus with 96 samples.

Results

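Expression of 9 genes of brown fat heat production (*Ucp1*, *Cidea*, *Cox8b*, *Cox7a1*, *Elovl3*, *Ppargc1a*, *Dio2*, *Otop1* and *Cpt1b*) was examined in bulk RNA-seq of 16 mouse tissues. The genes were taken by symbol, and all 9 were found among the 41575 symbols of the count table. The tissues came from mice aged 3 weeks, either wild type or lacking the tendon transcription factor Scleraxis (*Scx-/-*), with 3 libraries for each of the 32 combinations of tissue and genotype (96 libraries in all). The labels name no treatment and no sex, and they do not say which libraries share a mouse, so the p-values below measure the spread between libraries, which may be partly technical. Levels are given as CPM, counts scaled to a common library total. The libraries are 3′-enriched, and no gene is ranked above another by its level. Where a gene is given as a percentage of other genes, the percentage is compared only between libraries.

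Brown adipocytes burn fatty acids to make heat. Noradrenaline acts on β-adrenergic receptors, cAMP rises, lipolysis is switched on, and fatty acids fuel the mitochondria and open the uncoupling protein UCP1, which lets protons return across the inner membrane without making ATP. Brown fat surrounds large vessels in the chest and between the shoulder blades, and in young mice it is highly active.

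For *Ucp1*, *Cox8b*, *Cox7a1* and *Dio2*, the 250 bases before the RefSeq transcription start are shown, because these are the members whose levels set the tissue patterns described here and because *Ucp1* and *Dio2* are known cAMP-responsive genes (build GRCm38.p6, 5′ to 3′ on the strand of the gene). The table of promoters held 6 of the 9 genes. Capitals mark TATATA and AGGTCA (a hexamer that nuclear receptors bind) in *Ucp1*, an E-box (CANNTG, as bound by basic helix-loop-helix factors such as Scleraxis) in *Cox8b* and in *Cox7a1*, and the full cAMP response element TGACGTCA in *Dio2*.
Ucp1, chr8:83290098-83290347, plus strand: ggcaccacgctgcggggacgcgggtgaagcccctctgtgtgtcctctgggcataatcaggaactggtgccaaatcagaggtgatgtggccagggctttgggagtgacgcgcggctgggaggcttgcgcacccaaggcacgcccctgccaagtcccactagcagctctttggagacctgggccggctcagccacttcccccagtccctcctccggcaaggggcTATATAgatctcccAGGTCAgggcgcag
Cox8b, chr7:140900447-140900696, minus strand: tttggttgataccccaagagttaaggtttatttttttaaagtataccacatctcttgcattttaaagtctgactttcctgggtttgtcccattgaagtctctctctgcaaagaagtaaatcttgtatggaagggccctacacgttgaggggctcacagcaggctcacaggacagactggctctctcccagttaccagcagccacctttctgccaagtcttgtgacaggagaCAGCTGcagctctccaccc
Cox7a1, chr7:30183921-30184170, plus strand: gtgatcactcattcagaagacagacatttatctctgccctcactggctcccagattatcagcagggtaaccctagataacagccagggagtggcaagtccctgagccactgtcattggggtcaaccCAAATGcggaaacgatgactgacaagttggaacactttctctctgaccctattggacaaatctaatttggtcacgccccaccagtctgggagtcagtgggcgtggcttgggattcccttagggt
Dio2, chr12:90739039-90739288, minus strand: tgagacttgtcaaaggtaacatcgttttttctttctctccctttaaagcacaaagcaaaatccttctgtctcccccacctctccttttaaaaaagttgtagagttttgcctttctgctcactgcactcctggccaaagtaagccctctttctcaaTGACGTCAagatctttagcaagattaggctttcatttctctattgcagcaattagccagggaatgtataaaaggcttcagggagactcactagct
The *Ucp1* window held TATATA 28 bases before the start and AGGTCA 14 bases before it, with TGACG, the shorter form of the cAMP element, 147 bases before it. TGACGTCA lay 95 bases before the start of *Dio2*. Among 32851 promoters in the table, 1.55% held TGACGTCA, 17.8% held TGACG (which also lies within TGACGTCA), 14% held AGGTCA and 5.25% held TATATA. An E-box was found in 66.2% of promoters, so its presence in *Cox8b* and *Cox7a1* is common. The TATA motif was searched on the given strand and the other motifs on both strands, and a match is a description of letters only.

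Library totals ran from 11244 to 1658192 counts (median 251640), and 16 of 96 libraries held under 100000. *Scx* itself had 80 counts in 12 of 48 wild-type libraries and 9 counts in 1 of 48 *Scx-/-* libraries, the library labelled cartilage *Scx-/-* 1. Counts there are unexpected for its label, and their source was not tested. In vascular libraries *Scx* had 4 counts in 1 wild-type library and 0 in *Scx-/-*, too few to check the labels. Labels were compared with marker lists. The libraries labelled vascular carried a high summed level of 18 general adipocyte genes (24354 CPM on average, range 18354 to 34149), while the next tissue, cartilage, had 6779 CPM (5300 to 8939). The libraries labelled adipose had 302 CPM of the same genes (114 to 523) and 473167 to 583143 CPM of 14 pancreatic acinar genes, so in these samples the label adipose goes against the markers, and the group is called adipose-labelled. Cartilage libraries held 135701 to 174158 CPM and bone libraries 27928 to 100350 CPM of 12 skeletal muscle genes. In bulk RNA, fewer cells of a type and less RNA per cell cannot be told apart.

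Some of the thermogenic genes (*Ucp1*, *Cidea* and *Otop1*) had most of their counts in vascular libraries, and the others did not. *Ucp1*, *Cidea*, the mitochondrial electron transport subunit *Cox8b*, *Dio2* and *Otop1* had their highest mean over both genotypes there, whereas *Cox7a1* was highest in heart, *Ppargc1a* in kidney and *Elovl3* in rectum. Of all counts in the 96 libraries, vascular libraries held 85.3% for *Ucp1*, 85.7% for *Otop1* and 77.0% for *Cidea*, against 24.7% for *Cox8b*, 13.1% for *Dio2*, 9.10% for *Cox7a1* and 5.68% for *Ppargc1a*. The share was 20.8% for *Elovl3* and 0% for *Cpt1b*, both with few counts. Such shares depend on depth, and vascular libraries held 1047053 counts in all where cortex libraries held 6324607. These levels were part of the choice of genes and tissues and are given as a description.

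**Figure D1:**
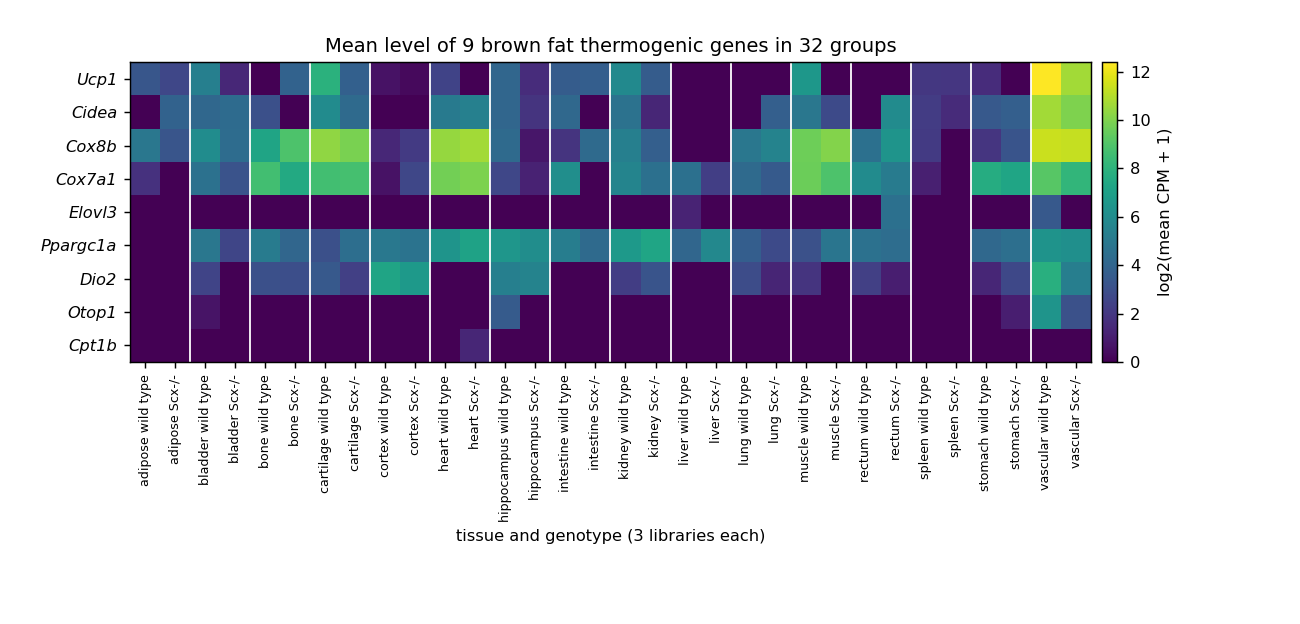
Heat map of the mean level of the 9 genes (rows) in the 32 combinations of tissue and genotype (columns, 3 libraries each), as log2(mean CPM + 1). *Ucp1* and *Cidea* stand out in vascular libraries alone, *Cox8b* and *Cox7a1* are also high in heart, muscle, cartilage and bone, *Dio2* is also high in cortex and hippocampus, and *Cpt1b* is near 0 throughout.

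*Ucp1* (chr8:83290352-83298452, plus strand) encodes the uncoupling protein that defines brown fat. It averaged 3484 CPM over the 6 vascular libraries (939 to 7741), and no library of any other tissue reached that range. Cartilage followed at 125 CPM (0 to 540), then muscle at 46.9 CPM (0 to 260), kidney at 34.1 CPM (0 to 104) and bladder at 20.5 CPM (0 to 117), and the ranges of these neighbours overlapped. Means in the remaining tissues were at most 11.7 CPM. *Ucp1* had no count in liver, lung or rectum, which allows pooled levels of up to 1.02, 3.34 and 3.08 CPM (3 counts of the tissue's total, counting error only). In all, 39 of 96 libraries had at least 1 *Ucp1* count.

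*Cidea*, a lipid droplet protein abundant in brown adipocytes, followed the same order at its top. It averaged 1309 CPM in vascular libraries (425 to 1927), above every library of the next tissue, cartilage (40.8 CPM, 0 to 116). Heart (37.7 CPM), rectum (30.8 CPM), bladder (17.7 CPM) and muscle (17.6 CPM) overlapped one another, and cortex and liver had no count. *Otop1*, a proton channel whose expression marks brown fat, was found in only 7 of 96 libraries. Vascular libraries averaged 45.5 CPM (0 to 149), and elsewhere it had counts only in single libraries of hippocampus, stomach and bladder.

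*Cox8b* and *Cox7a1* encode the muscle and brown fat forms of 2 subunits of cytochrome c oxidase, and both were spread over several tissues, heart and muscle among them. *Cox8b* (chr7:140898945-140900446, minus strand) averaged 2590 CPM in vascular libraries (1914 to 3454), 1507 in heart (1151 to 1934), 1111 in cartilage (685 to 1974), 950 in muscle (559 to 1160) and 318 in bone (26.0 to 591). *Cox7a1* (chr7:30184144-30186078, plus strand) averaged 929 CPM in heart (178 to 1247), 639 in muscle (426 to 1348), 433 in vascular libraries (216 to 711), 414 in cartilage (202 to 516) and 289 in bone (17.3 to 602). Stomach followed at 179 CPM (85.8 to 266). For both genes each neighbour in this order overlapped the next. The skeletal muscle markers of cartilage and bone given above move with these levels, and their part in them was not tested.

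*Ppargc1a*, the coactivator that drives mitochondrial biogenesis, showed no vascular peak. Kidney led with 128 CPM (87.5 to 190), then heart with 111 (0 to 215), hippocampus with 77.9 (6.99 to 244) and vascular libraries with 76.6 (19.6 to 156), all with overlapping ranges. *Dio2* (chr12:90724552-90738438, minus strand) makes active thyroid hormone within the cell, in brown fat and in brain. Vascular libraries averaged 129 CPM (22.4 to 362) and cortex 123 CPM (80.0 to 164), which overlap, and with totals scaled by TMM cortex came first. The order differed by genotype, with 221 CPM in vascular libraries and 148 CPM in cortex of wild type, and 37.8 and 98.7 CPM in *Scx-/-*. Hippocampus followed at 42.7 CPM (27.4 to 60.6), below every cortex library and above every cartilage library (mean 7.11 CPM, 0 to 18.1).

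*Elovl3*, which elongates very long chain fatty acids and is strongly induced by cold in brown fat, had 24 counts in 5 libraries. Rectum libraries *Scx-/-* 2 and 3 held 10 and 8 of them, and vascular wild-type libraries 2 and 3 held 4 and 1. *Cpt1b*, the muscle and brown fat form of the carnitine palmitoyltransferase that brings fatty acids into mitochondria, had 1 count in all, in heart. Vascular libraries had none, which allows up to 2.87 CPM. In the GRCm38 annotation *Cpt1b* (chr15:89416405-89425863, minus strand) lies wholly within *Gm44502* on the same strand, which also overlaps the neighbouring *Chkb*. *Gm44502* is in the table with 0 counts and *Chkb* had counts in every tissue (63 in vascular), so the level of *Cpt1b* is uncertain. *Cidea*, *Elovl3* and *Dio2* each overlap a gene on the opposite strand, as does *Ppargc1a*, which also overlaps 3 annotated genes on its own strand, and the strand setting of the counting is not given in the sources used here.

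Over the 32 group means on the log2(CPM + 1) scale, the patterns of the members fell into several sets. *Ucp1* was most like *Plin1* (Pearson r = 0.87), the lipid droplet coat protein of adipocytes, *Irs3* (0.86) and *A530050N04Rik* (0.86), of 17411 genes with a group mean of at least 10 CPM. *Cidea* was most like *Plin1* (0.83), *Irs3* (0.83) and *Ucp1* (0.82). *Cox8b* was most like *Ucp3* (0.87) and *Myom1* (0.85), and *Cox7a1* was most like *Pdlim5* (0.86), *Atp5e* (0.85) and *Perm1* (0.82). *Ucp3*, *Myom1* and *Perm1* are known from striated muscle. *Dio2* was most like *Clstn3* (0.92), *Ntrk2* (0.90) and *Rgs7* (0.89), genes known from brain. *Ppargc1a* was most like the mitochondrial transcripts *TrnI* (0.82), *Rnr2* (0.81) and *Rnr1* (0.80). *Elovl3* (*Gm42234* 0.96, *Gm11938* and *Scgb1b27* 0.80) and *Otop1* (*4930413F20Rik*, *Gm41045* and *9430078K24Rik*, each 0.92) were too sparse for these values to be read. Between members r was 0.82 for *Ucp1* and *Cidea*, 0.81 for *Cox8b* and *Cox7a1*, 0.49 for *Ucp1* and *Cox8b* and 0.48 for *Ucp1* and *Dio2*. The points share libraries and depth, and the correlations are descriptions.

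The next comparison asked how far vascular libraries differ from heart and muscle, other tissues rich in mitochondria. Vascular libraries had more *Ucp1*, *Cidea* and *Dio2* than either tissue, more *Otop1* than muscle and less *Cox7a1* than heart, while *Cox8b* and *Ppargc1a* did not pass the test against either. Against heart, 3 of the 9 tested members were higher (1.2% of all 14466 genes tested were called higher) and 1 was lower (2.05% of all genes). Each test was an edgeR quasi-likelihood fit of 12 libraries with genotype as a term, and p-values were adjusted over all genes by the method of Benjamini and Hochberg. The high vascular level of *Ucp1*, *Cidea* and *Cox8b* was known when the comparison was chosen, so the p-values set its size against the spread between libraries and are not independent evidence of it.

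*Ucp1* had 6 counts in the heart libraries, all in wild-type library 1, against 3965 in vascular libraries, a log2 fold change of 9.48 ± 0.59 (SE, adjusted p = 4.14e-55). *Cidea* was 4.63 ± 0.52 higher on the same scale (adjusted p = 2.11e-16). *Dio2* had no count in heart and 140 in vascular libraries, at least 57.8-fold higher against a floor of 3 counts over the 6 heart libraries (adjusted p = 0.000104). *Otop1* also had no count in heart and at least 19.8-fold more in vascular libraries, with an adjusted p of 0.0640. The striated subunits did the opposite or did not separate. *Cox7a1* was lower in vascular libraries by a log2 fold change of −1.46 ± 0.45 (adjusted p = 0.0357), and this call was lost without any one of 9 of the 12 libraries (heart wild-type 1 or 3, heart *Scx-/-* 1, 2 or 3, vascular wild-type 3, or vascular *Scx-/-* 1, 2 or 3), with adjusted p-values up to 0.155. *Cox8b* differed by 0.66 ± 0.36 (adjusted p = 0.399) and *Ppargc1a* by −0.84 ± 0.77 (adjusted p = 0.597).

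Against muscle, 4 of 8 tested members were higher in vascular libraries (1.33% of all 15479 genes were called higher) and none was lower (3.99% of all genes). Of the 4, *Cidea* had the smallest error, at a log2 fold change of 5.46 ± 0.56 (adjusted p = 2.98e-18). *Ucp1* was higher by 6.69 ± 1.35 (adjusted p = 0.0192), and *Dio2* by 5.25 ± 1.13 (adjusted p = 0.000161). *Otop1* had 48 counts in vascular libraries and none in muscle, at least 59.0-fold higher (adjusted p = 0.0138). The *Ucp1* call was lost without muscle wild-type 3 (adjusted p = 0.0539), *Scx-/-* 1 (0.0530) or *Scx-/-* 2 (0.0511), and the *Otop1* call without muscle wild-type 2 (0.0703), muscle wild-type 3 (0.0577) or vascular *Scx-/-* 3 (0.0623). *Cox7a1* (−1.33 ± 0.45, adjusted p = 0.0531) and *Cox8b* (0.60 ± 0.36, adjusted p = 0.396) were not called. *Cox7a1* was called lower with filterByExpr (adjusted p = 0.0321) and DESeq2 (0.00956). *Cox8b* was called higher in 4 of 5 alternatives, with relative log expression size factors (0.91, adjusted p = 0.0409), filterByExpr (0.87, 0.0449), DESeq2 (0.90, 0.0116) and library totals. Scaling by library totals moved the median of all genes by 0.73 on the log2 scale and changed the split over all genes from 206 higher and 618 lower to 603 higher and 384 lower. Under it *Cox8b* was higher by 1.45 (adjusted p = 5.38e-05). The median shift was 0.26 with relative log expression size factors, 0.27 with filterByExpr and 0.32 with DESeq2.

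Against the adipose-labelled libraries, 6 of 8 tested members were higher in vascular libraries (2.25% of all 13838 genes were called higher). *Ucp1* had 1, 1 and 1 counts in the wild-type and 7, 0 and 0 in the *Scx-/-* adipose-labelled libraries, and differed by 7.19 ± 0.64 (adjusted p = 2.60e-26). *Cidea* differed by 5.80 ± 0.74 and *Cox8b* by 5.98 ± 0.63. *Cox7a1* had 1 count there against 493, a ratio of 761 with a 95% counting interval of 136 to 30132. *Dio2* and *Ppargc1a* had none, at least 72.1-fold and 39.1-fold less than in vascular libraries. The call of *Ppargc1a* (adjusted p = 0.0261) was lost without any one of the 6 adipose-labelled libraries or vascular *Scx-/-* 3 (0.0507 to 0.0700). Library totals moved the median of all genes by 1.16 here and the split from 311 higher and 238 lower to 1686 and 154, and the pancreatic markers given above move with this comparison.

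**Figure D2:**
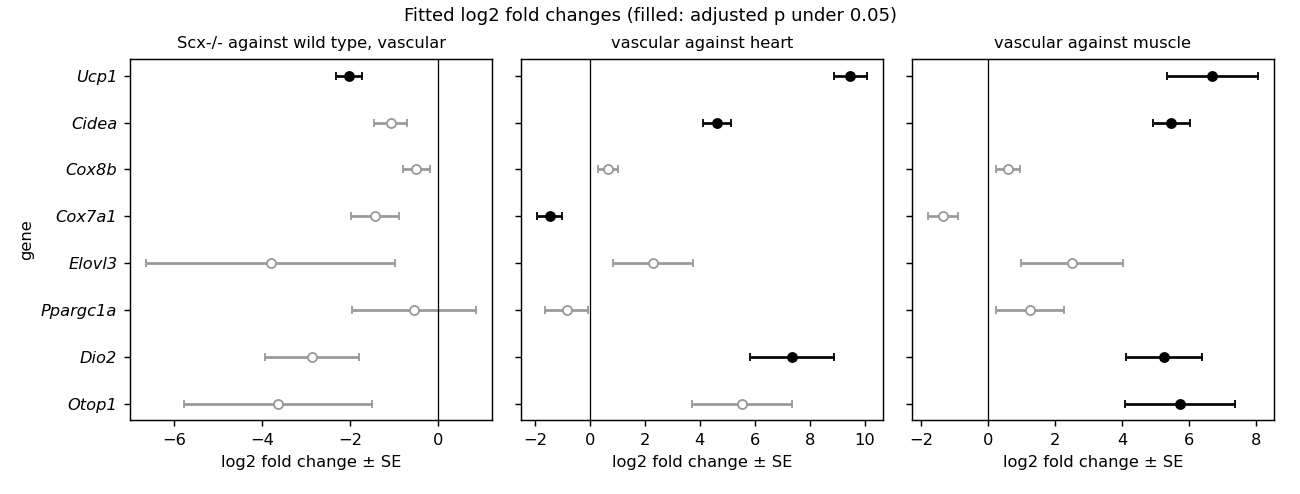
Fitted log2 fold changes ± SE of 8 of the genes in 3 comparisons (panels), filled where the adjusted p is under 0.05; genes that are at 0 in one group have a fitted value that depends on the prior count. *Ucp1* alone is filled in the genotype panel (−2.03), and *Ucp1*, *Cidea* and *Dio2* are filled to the right of 0 in both tissue panels.

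The main comparison of genotypes was made in vascular libraries, which held most counts of *Ucp1*, *Cidea* and *Otop1*. The study itself left this tissue out of its later analysis. Its stated reason was contamination, since genes specific to these samples in both genotypes pointed to brown fat differentiation. *Ucp1* was lower in *Scx-/-* vascular libraries, with a mean of 1611 ± 765 CPM against 5356 ± 2480 CPM (SD, n = 3). It was the 1 member of 8 tested that was called, and 0.0329% of all 12172 genes tested were called (4 genes, all lower). The means of *Cidea*, *Cox7a1*, *Dio2* and *Otop1* were lower too, and none of these passed the adjusted test. The means of *Cox8b* and *Ppargc1a* differed by less than the SD between libraries. The lower *Ucp1* in *Scx-/-* vascular libraries was known when the genes were chosen and is the base for what follows, not an independent result.

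*Ucp1* measured 2790, 7741 and 5537 CPM in the 3 wild-type libraries (990, 1197 and 1209 counts) and 2443, 1452 and 939 CPM in the *Scx-/-* libraries (373, 112 and 84 counts). The groups did not overlap, but wild-type 1 and *Scx-/-* 1 lay close together. The log2 fold change was −2.03 ± 0.29 (SE, adjusted p = 1.71e-08), and it was called without any one library (−2.57 to −1.73, adjusted p from 2.62e-08 to 0.00149). It was not called with DESeq2 (−1.85, adjusted p = 0.133), with low genes filtered by filterByExpr (−1.88, adjusted p = 0.0705), or in a joint fit of all 32 groups (−2.15, adjusted p = 0.431).

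*Cidea* measured 1604, 1927 and 1305 CPM in wild type and 1231, 1361 and 425 CPM in *Scx-/-* libraries. The groups overlapped, and the log2 fold change was −1.09 ± 0.37 (adjusted p = 0.672). *Cox7a1* measured 530, 711 and 504 CPM against 216, 389 and 246 CPM, with no overlap (−1.45 ± 0.54, adjusted p = 0.672). Neither gene passed the adjusted test. *Cox8b*, the other oxidase subunit, measured 2692, 3454 and 1914 CPM against 2469, 2878 and 2135 CPM, and every *Scx-/-* value lay within the wild-type range (−0.51 ± 0.31, adjusted p = 0.672).

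*Dio2* measured 53.6, 362 and 247 CPM in wild type (19, 56 and 54 counts) and 26.2, 64.8 and 22.4 CPM in *Scx-/-* libraries (4, 5 and 2 counts). Wild-type 1 was low and overlapped the *Scx-/-* libraries, and the difference was −2.86 ± 1.07 (adjusted p = 0.672). *Otop1* had 2, 23 and 21 counts against 0, 0 and 2. In wild-type library 1, therefore, *Ucp1*, *Dio2*, *Otop1* and *Ppargc1a* were at their lowest wild-type CPM, while *Cidea* (1604 CPM) and *Cox8b* (2692 CPM) were not. *Ppargc1a* measured 67.6, 103 and 73.3 CPM against 19.6, 38.9 and 156 CPM, where *Scx-/-* 3 was the highest of the 6 (−0.56 ± 1.40, adjusted p = 0.936). *Elovl3* had 0, 4 and 1 counts against 0, 0 and 0, and *Cpt1b* had none and was not tested.

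**Figure D3:**
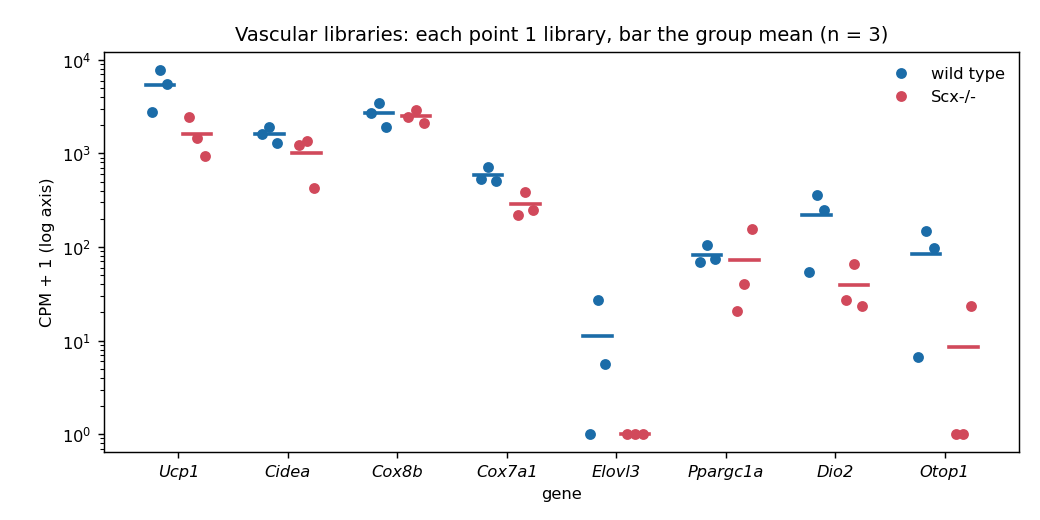
Level of the thermogenic genes in each of the 6 vascular libraries, as CPM + 1 on a log axis (points), with a bar for the mean of the 3 libraries of each genotype. *Ucp1* and *Cox7a1* separate the genotypes, while *Cox8b* and *Cidea* overlap.

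All 8 tested members had a negative log2 fold change, with a median of −1.74 (−1.27 with *Elovl3* at the bound that 3 counts give), but the median of all genes tested was itself −0.51. Other scalings moved that median by 0.18 (size factors of the relative log expression method), 0.31 (library totals) and 0.27 (the general adipocyte list). By the thresholds of the study, an unadjusted p under 0.05 and a change of more than 2-fold, 4 members were lower (*Ucp1*, *Cidea*, *Cox7a1* and *Dio2*), where 4.19% of all genes passed and 2.48% were lower. This count was 2 with library totals, with filterByExpr and with scaling to the general adipocyte list, and no member passed in the joint fit.

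Other values differed between the same libraries. Totals did not overlap (154625 to 354795 counts in wild type, 77132 to 152689 in *Scx-/-*). In a random thinning of every library to the smallest, fitted with edgeR only, *Ucp1* was called (adjusted p = 7.57e-08). Mitochondrial and ribosomal RNA rows took 15.8% to 27.9% of counts in wild type and 10.7% to 13.7% in *Scx-/-*. Cardiomyocyte genes summed to 8.46, 12.9 and 114 CPM in wild type and 45.8, 25.9 and 2113 CPM in *Scx-/-*, where library 3 had counts for 7 of the 11 genes. Without that library *Ucp1* was lower by −1.73 (adjusted p = 4.89e-06). Pancreatic acinar genes (10 to 12 of 14 with counts) summed to 482 to 899 CPM in wild type and 596 to 3524 CPM in *Scx-/-*, and skeletal muscle genes to 316 to 563 CPM and 458 to 752 CPM. The part of depth, of the RNA rows and of these other cell types in the *Ucp1* difference was not tested. Smooth muscle genes (8 to 10 of 10 with counts, 14510 to 26645 CPM against 15726 to 36643 CPM) and endothelial genes (4 to 8 of 9 with counts, 457 to 724 CPM against 373 to 581 CPM) overlapped between genotypes.

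General adipocyte genes did not share the *Ucp1* difference in their summed level. Their sum was 23712 ± 2548 CPM in wild type and 24996 ± 8192 CPM in *Scx-/-* libraries, with overlapping ranges (22125 to 26652 and 18354 to 34149). Of the 18 genes, 15 to 17 had counts in each library, and *Adipoq*, the fat hormone gene, measured 854, 1028 and 792 CPM against 681, 1063 and 950 CPM. Each member was therefore also expressed as a percentage of this sum in the same library, a ratio chosen after the data were seen.

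*Ucp1* was 12.5%, 29.0% and 25.03% of the adipocyte sum in wild type and 10.9%, 4.25% and 5.12% in *Scx-/-* libraries. The means were 22.2% ± 8.64 and 6.74% ± 3.59 (SD, n = 3), 3.29-fold apart and without overlap (two-sided exact permutation p = 0.1, the smallest that 3 against 3 libraries allow). *Cidea* (6.77% ± 0.753 against 3.93% ± 1.58), *Cox7a1* (2.44% ± 0.205 against 1.15% ± 0.189) and *Dio2* (0.905% ± 0.589 against 0.143% ± 0.0409) did not overlap either. *Cox8b* overlapped, at 11.2% ± 2.27 against 10.3% ± 1.69 (exact permutation p = 0.5), as did *Ppargc1a*, at 0.341% ± 0.0436 against 0.351% ± 0.434 (exact permutation p = 1). By CPM *Cidea* and *Dio2* overlapped, and the share of all genes that separate in such a ratio was not counted. Per *Adipoq* alone, *Ucp1* was 593% ± 232 against 198% ± 140 and overlapped (exact permutation p = 0.2), as did *Cidea*, while *Cox7a1* and *Dio2* did not. With libraries scaled to the adipocyte sum, *Ucp1* was called at −1.71 (adjusted p = 4.38e-06), *Cox8b* differed by −0.12 and *Cidea* by −0.78.

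**Figure D4:**
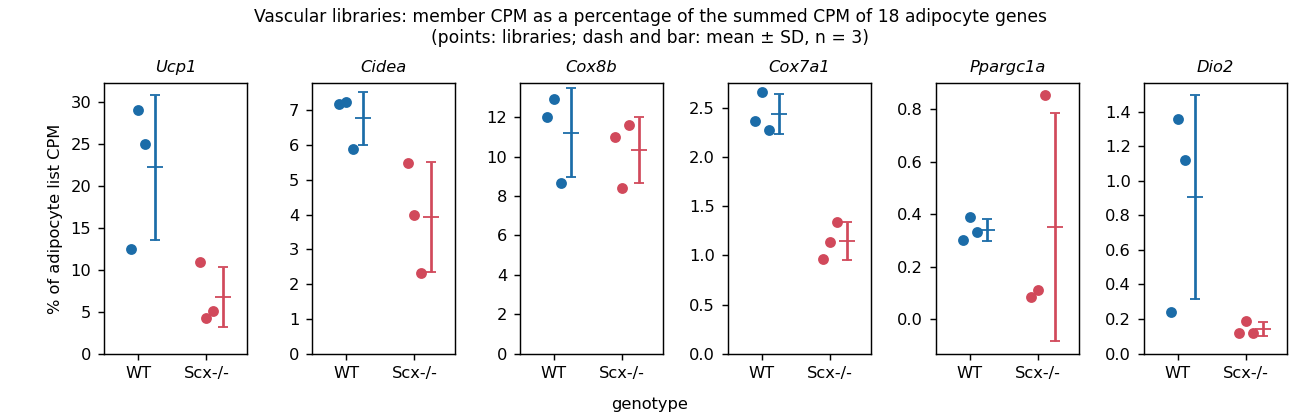
CPM of 6 genes as a percentage of the summed CPM of 18 general adipocyte genes in each vascular library (points), with mean ± SD of 3 libraries per genotype; the lower SD bar of *Ppargc1a* in *Scx-/-* runs under 0. *Ucp1*, *Cidea*, *Cox7a1* and *Dio2* do not overlap between genotypes, and *Cox8b* and *Ppargc1a* do. The share of all genes that separate in this way was not counted.

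Paralogs of the members showed what the tissue-specific forms did relative to the general ones. In the main fit, none of the 13 tested paralogs was called in vascular libraries by edgeR or DESeq2 or had an unadjusted p under 0.05, 4 had a positive and 9 a negative log2 fold change, and their median was −0.23 against −0.51 over all genes. *Cidec*, the white and brown fat relative of *Cidea*, measured 484 ± 115 CPM in wild type and 676 ± 357 CPM in *Scx-/-* (0.05 ± 0.49, adjusted p = 0.986). *Cox8a*, the general form of *Cox8b*, measured 572 ± 181 and 948 ± 454 CPM, and *Cox7a2*, the general form of *Cox7a1*, 460 ± 81.4 and 602 ± 303 CPM. *Ppargc1b* measured 52.3 ± 40.2 and 195 ± 58.2 CPM (1.40 ± 1.06, adjusted p = 0.672), a difference in the other direction than *Ucp1* that did not pass the test. *Ucp2* (48.0 and 61.4 CPM), *Ucp3* (63.6 and 21.6 CPM), *Cox7a2l* (288 and 303 CPM), *Elovl1* (45.2 and 43.7 CPM), *Elovl5* (101 and 21.8 CPM), *Elovl6* (192 and 201 CPM), *Pprc1* (4.31 and 33.3 CPM) and *Cpt1a* (32.04 and 29.9 CPM) were also detected. *Cpt1a*, the liver form of the transferase, was thus counted in libraries where *Cpt1b* had none. On library totals the means of *Ucp2*, *Cox7a2*, *Cox7a2l* and *Elovl6* were higher in *Scx-/-*, although their fitted values with TMM scaling were negative, so the split of signs depends on the scaling. Among the groups of vascular, heart and muscle libraries, *Cideb* and *Elovl2* reached 10 CPM only in wild-type heart, at 93.2 and 29.6 CPM, with SDs above the means and with 1 of the 3 libraries at 11244 counts in all.

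The rest of the pathway was read from lists around the members. Of 15 genes of adrenergic signalling and lipolysis, 1 was called lower, *Gnas*, the stimulatory G protein subunit that links the receptor to adenylyl cyclase. It measured 3182, 5497 and 3829 CPM in wild type and 2043, 2917 and 1710 CPM in *Scx-/-*, which do not overlap (−1.29 ± 0.29, adjusted p = 0.0312), but the list kept a called gene in only 1 alternative, the one without *Scx-/-* library 2, and not under another scaling or without any one of the other 5 libraries. *Gnas* is expressed by most cell types. The lipases *Pnpla2* (−0.05 ± 0.30), *Lipe* (−0.04 ± 0.54) and *Mgll* (−0.41 ± 0.53) were not called, nor was *Prkar2b*, a regulatory subunit of protein kinase A (−1.35 ± 0.55, adjusted p = 0.672). The list had 12 negative and 3 positive values with a median of −0.48. An unadjusted p under 0.05 was found for 4 of its genes (4.34% of all genes), *Gnas*, *Prkar2b*, *Abhd5*, a coactivator of *Pnpla2* (−3.12 ± 1.49), and *G0s2*, an inhibitor of it (−1.52 ± 0.63).

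No gene was called by edgeR or DESeq2 among 14 tested transcriptional regulators (median 0.01, 7 of each sign), 20 tested genes of fatty acid uptake and oxidation (median −0.41, 15 negative), 10 of lipogenesis (median −0.94, 9 negative) or 15 other heat-producing or brown fat genes (median −1.49, 12 negative). The median of all genes tested was −0.51. An unadjusted p under 0.05 was found for 0, 1, 4 and 3 genes of these lists, and for 4.34% of all genes. The regulators *Cebpb* (−0.49 ± 0.42), *Cebpa* (0.64 ± 0.75), *Ppara* (−1.27 ± 0.75) and *Pparg* (−0.14 ± 0.86) did not pass the test. *Prdm16*, the brown fat determination factor, had 0, 0 and 3 counts in wild type and 7, 1 and 5 in *Scx-/-*, and *Zic1* and *Tbx15* had none. In fatty acid uptake, *Fabp4* (−0.40 ± 0.25), *Lpl* (−0.34 ± 0.28), *Acaa2* (−0.73 ± 0.33) and *Cd36* (0.17 ± 0.35) did not pass the test. *Fasn*, the fatty acid synthase, had an unadjusted p under 0.05 and a log2 fold change of −1.82 ± 0.57 (adjusted p = 0.672), beside *Dgat2* at −0.96 ± 0.37, *Thrsp* at −0.64 ± 0.38 and *Acacb* at 0.41 ± 0.60. Among the other heat genes *Slc36a2* was at −0.14 ± 0.51, *Kcnk3* at −0.30 ± 0.56, *Letmd1* at −1.46 ± 0.64 and *Pank1* at −2.32 ± 0.70, all with adjusted p-values of 0.672 or more. Among the 18 adipocyte genes, *Car3*, a carbonic anhydrase abundant in fat, was called lower (3298, 4275 and 2926 CPM against 1677, 2398 and 1129 CPM, −1.42 ± 0.31, adjusted p = 0.0157). That list had a median of −0.09, with *Pck1* at −0.02 ± 0.30, and 3 of its 18 genes had an unadjusted p under 0.05, *Car3*, *Tusc5* (19, 59 and 27 counts against 0, 4 and 0) and *Lep*, which encodes leptin (28, 13 and 0 counts against 0, 0 and 0). It kept a called gene without wild-type 3 or *Scx-/-* 2, and not without wild-type 1 or 2 or *Scx-/-* 1 or 3, nor under another scaling.

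In the 15 other tissues 83 tests of a member were possible, of which 52 gave a negative and 31 a positive log2 fold change, 7 had an unadjusted p under 0.05 (3.99% of all tests of all genes in these tissues) and 2 were called (0.0948%). Both called values were *Ucp1*, lower in *Scx-/-* muscle and in *Scx-/-* cartilage. Both rest on few libraries.

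In muscle *Ucp1* had 0, 227 and 10 counts in wild type and none in the 3 *Scx-/-* libraries. Wild-type 2 thus held nearly all of it (0, 260 and 21.1 CPM). The pooled wild-type level of 172 CPM was at least 142-fold higher than the floor of 3 counts over the *Scx-/-* libraries, and the adjusted p was 2.41e-05, with 0.0482% of all 14532 genes called. Without wild-type 2 the bound fell to at least 16.4-fold and the call was lost (adjusted p = 0.761). It was also lost with DESeq2 (adjusted p = 0.643), in the joint fit (0.667) and with filterByExpr. The same library had the highest adipocyte sum of the 6 muscle libraries (7050 CPM, with 2299 to 3926 in the others), with *Adipoq* at 141 CPM and *Cidea* at 88.4 CPM. The part of adipocyte content in the muscle value was not tested.

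In cartilage *Ucp1* had 0, 42 and 149 counts in wild type (0, 169 and 540 CPM) and 1, 7 and 0 in *Scx-/-* libraries (4.13, 34.1 and 0 CPM). The groups overlapped, since wild-type 1 had none. The log2 fold change was −4.18 ± 0.94 (adjusted p = 0.0470), with 0.0222% of all 13534 genes called. It was lost without wild-type 2 (adjusted p = 0.298), wild-type 3 (0.843), *Scx-/-* 1 (0.374) or *Scx-/-* 3 (0.852), with DESeq2 (0.998), in the joint fit (0.434), with filterByExpr and with size factors of the relative log expression method (0.050003). The adipocyte sum was 8939, 8407 and 6132 CPM in wild type and 5805, 6092 and 5300 CPM in *Scx-/-* libraries. Every wild-type sum was above every *Scx-/-* sum, the direction of the *Ucp1* call. *Adipoq* alone was 197, 4.03 and 116 CPM against 62.0, 9.74 and 72.5 CPM, which overlap. The sum is not specific to fat, since liver libraries held 3830 to 5614 CPM of it with *Adipoq* at most 1.70 CPM. Within wild type the highest sum was in library 1, which had no *Ucp1* count. The part of adipocyte content in the cartilage value was not tested. The library labelled *Scx-/-* 1 held the *Scx* counts that are unexpected for its label, and the log2 fold change without it was −3.77.

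Values with an unadjusted p under 0.05 that were not called were found for 5 further pairs of gene and tissue. *Ucp1* in kidney had 10, 50 and 70 counts in wild type and 15, 0 and 0 in *Scx-/-*, and *Cidea* there had 37, 8 and 18 against 2, 0 and 0. *Ucp1* in bladder had 1, 0 and 51 counts against 2, 0 and 0. *Cox8b* in bone ran the other way, at 26.0, 167 and 255 CPM in wild type and 432, 435 and 591 CPM in *Scx-/-* (1.85 ± 0.93, adjusted p = 0.636), without overlap. *Cidea* in rectum had no count in wild type and 0, 28 and 20 counts in *Scx-/-*. Adjusted p-values of these 5 lay between 0.636 and 0.804.

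Over the 90 libraries outside vascular tissue, *Ucp1* had a count in 22 of 45 wild-type and 11 of 45 *Scx-/-* libraries, and 637 against 49 counts in all (of 15370516 and 17206000). Of the 637, muscle wild-type 2 held 227 and cartilage wild-type 3 held 149. At least 10 CPM was reached in 10 wild-type and 5 *Scx-/-* libraries, and at least 100 CPM in 5 wild-type and 0 *Scx-/-* libraries. The 5 with at least 100 CPM were cartilage wild-type 3 and 2 (540 and 169 CPM), muscle wild-type 2 (260 CPM), bladder wild-type 3 (117 CPM) and kidney wild-type 3 (104 CPM). *Cidea* was present in all 5, from 4.03 to 116 CPM, and *Adipoq* from 4.03 to 364 CPM. Both lowest values were in cartilage wild-type 2, at the level of a lone count. Libraries without a *Ucp1* count held these genes too, as cartilage wild-type 1 did (*Cidea* at 68.9 CPM and *Adipoq* at 197 CPM). Because libraries of different tissues may come from the same mice, no test was made over them.

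**Figure D5:**
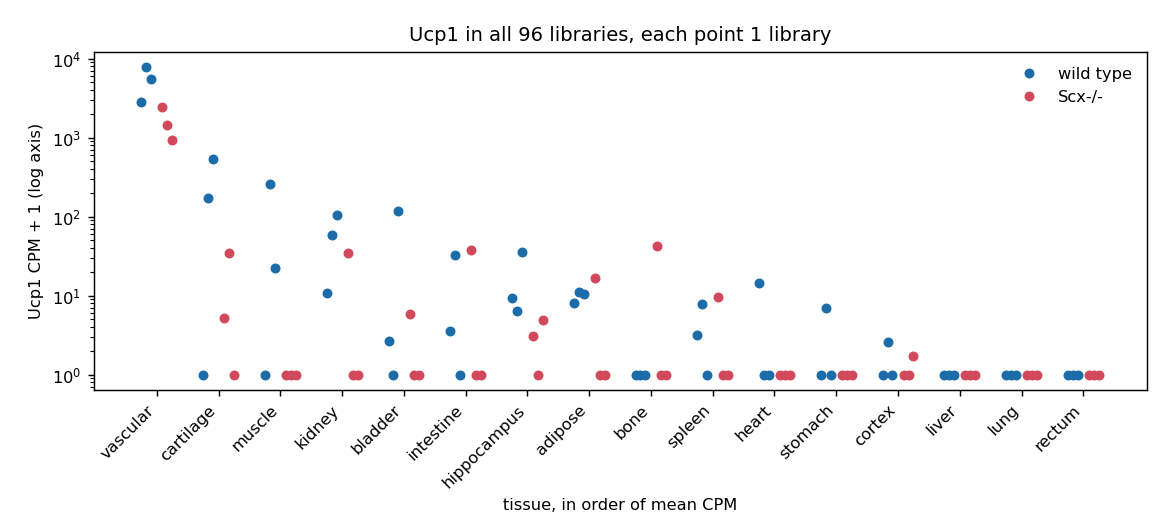
*Ucp1* level of each of the 96 libraries by tissue and genotype, as CPM + 1 on a log axis (points), with tissues in the order of their mean. The 6 vascular libraries sit between 939 and 7741 CPM, and outside them 5 wild-type libraries reach at least 100 CPM while no *Scx-/-* library does. At least 10 CPM is reached outside them in 10 wild-type and 5 *Scx-/-* libraries.

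Whether the *Ucp1* difference between genotypes was the same in other tissues was tested as an interaction over 18 libraries. Against heart, no member was called by edgeR or DESeq2 or had an unadjusted p under 0.05 (0.0305% of all 16387 genes were called), and the fitted genotype difference of *Ucp1* was less negative in vascular libraries than in heart by 2.28 on the log2 scale (adjusted p = 0.890). The *Scx-/-* heart libraries had no *Ucp1* count, so the size depends on the prior count of the fit, and without heart wild-type 1, which held all 6 counts, the value was −2.06. Against muscle, *Ucp1* was the 1 gene called (0.0061% of genes). Its fitted difference was less negative in vascular libraries than in muscle, by 6.36 ± 1.19 (adjusted p = 0.00135). This rested on muscle wild-type 2, without which it was 3.53 (adjusted p = 0.646), and it was not called with DESeq2 (adjusted p = 0.923). Since the *Scx-/-* muscle libraries have no *Ucp1* count the size depends on the prior count of the fit.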

How the data were processed

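Bulk RNA of 16 tissues was profiled in 96 barcoded, 3′-enriched libraries. The values are raw counts per gene symbol, whole numbers deposited by the authors, who aligned to mm10 (Bowtie2, default settings) and tallied reads per gene in HTSeq, as the study's methods and labels say. Tool versions, the annotation, strand setting and molecular identifiers are not given in the labels or methods, and the series text describes the libraries as based on Smart-seq2. Levels were computed as CPM on library totals, and genotypes (6 libraries), tissues (12 libraries, genotype as a term) and interactions (18 libraries) were tested with edgeR 4.0.16 in R 4.3.3 (TMM scaling, robust quasi-likelihood fit, genes at 0 in all libraries of a fit removed, adjusted p under 0.05). The SE of a log2 fold change is its size divided by the square root of F. The study's thresholds (unadjusted p under 0.05, over 2-fold) were applied beside this. Alternatives were DESeq2 1.42.0, other scalings, filterByExpr, a replicate block, a joint fit over 32 groups, thinning, and leaving out each library. Scaling to the adipocyte list, ratios to it and folds against 3 counts were added after the data were seen. Scripts were tested on simulated counts, and limma 3.58.1, Python 3.11.15, numpy 2.4.6, pandas 2.3.3, scipy 1.17.1 and matplotlib 3.10.9 were used.

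The 9 genes and all lists were chosen with earlier results of these data known. Named genes were all members, every called gene of a list with up to 4 more of the highest summed vascular CPM, the 3 genes most like each member (1 of them is not reported here), and paralogs with a group mean of at least 10 CPM in vascular libraries, heart or muscle. *Prdm16*, *Zic1*, *Tbx15*, *Abhd5*, *G0s2*, *Tusc5*, *Lep* and *Chkb* were named after their values were seen. Gene positions are from GENCODE on GRCm38 and promoters from RefSeq on GRCm38.p6. The promoter of *Cidea* is not shown. Depth ran from 11244 to 1658192 counts, and intervals and floors cover counting error only.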

Additional observations from a re-analysis of the deposited data

Results flagged for a closer look

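The genotype difference of *Ucp1* was not the same in vascular libraries and in muscle by the test of the interaction over 18 libraries, which gave 6.36 ± 1.19 on the log2 scale (edgeR, adjusted p = 0.00135). The difference was negative in both tissues, at a log2 fold change of −2.03 in vascular libraries and at least 142-fold lower in muscle (16.4-fold without wild-type 2), where the *Scx-/-* libraries had no count, so the size of the interaction depends on the prior count of the fit. In muscle 227 of 237 wild-type counts were in library 2, which also had the highest adipocyte sum of the 6 muscle libraries (7050 CPM). The call was lost with DESeq2 (adjusted p = 0.923) and with the replicate block. Without that library the interaction was 3.53 (adjusted p = 0.646), and the part of its adipocyte content was not tested.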

How the results depend on the processing

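The call of *Ucp1* between genotypes in vascular libraries (1 member) became 0 with filterByExpr, DESeq2 and the joint fit, and was 1 to 1 without single libraries. Its direction was the same in every alternative run. Members past the study's thresholds went from 4 to 2 with library totals, filterByExpr and scaling to the adipocyte list and to 0 in the joint fit (3 to 4 without single libraries). In cartilage 1 call became 0 under the relative log expression size factors, filterByExpr, DESeq2, the replicate block and the joint fit (0 to 1 without single libraries). In muscle 1 became 0 under filterByExpr, DESeq2, the replicate block and the joint fit (0 to 1). Kidney had 0 calls and 0 to 1 without single libraries, the 1 being without *Scx-/-* 1. Higher calls over the alternatives other than leaving out a library were 2 to 4 against heart (3 in the main setting, *Otop1* gained under 2 scalings), 3 to 5 against muscle (4, *Cox8b* gained in 4 of 5 and *Cidea* without an adjusted p in DESeq2) and 5 to 7 against the adipose-labelled libraries (6). Against heart, 1 lower call became 0 under the replicate block (0 to 1). Against muscle, 4 higher calls were 2 to 4 without single libraries, and 0 lower calls became 1 under filterByExpr and DESeq2 (0 to 1), which is *Cox7a1*. The interaction with muscle went from 1 to 0 under DESeq2 and the block (0 to 1). The interaction of *Ucp1* with heart reversed to −2.06 without heart wild-type 1, the heart library with all 6 *Ucp1* counts, from 2.28 (−2.06 to 2.94 without single libraries). Over all genes, 4 calls in vascular libraries became 2 with the relative log expression size factors, library totals and adipocyte scaling, and 0 with filterByExpr, DESeq2 and the joint fit, and 510 genes past the study's thresholds became 142 with the block, 93 with filterByExpr, 336 after thinning and 1710 in the joint fit. Calls against the adipose-labelled libraries rose from 549 to 1840 with library totals and to 951 with DESeq2. The block gave 497 calls against muscle (from 824) and 363 against the adipose-labelled libraries. Between genotypes, the calls over all genes ran from 1 to 59 in muscle (7 in the main setting) and from 0 to 10 in cartilage (3), leaving out single libraries included, and those of the interactions from 1 to 13 with heart (5) and from 0 to 13 with muscle (1). Where no cause is given, the cause was not tested.

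No pairing by replicate number was seen. Same-numbered deviations correlated at −0.119 to 0.0292 between genotypes (48 pairs) and −0.0166 to 0.0369 between vascular libraries and another tissue (18 pairs). Such values cannot show that same-numbered libraries come from different mice. With the replicate block *Ucp1* in vascular libraries was −2.13 (adjusted p = 1.33e-06), in muscle −8.46 (0.413), in cartilage −3.39 (0.9998) and in the interaction with muscle 5.32 (adjusted p = 1). Over the alternatives of the main counts of called members, 315 counts were equal to the main count or within 1.5 times of it. Among the rest, 31 fell to 0, 6 rose from 0 and 4 moved by over 1.5 times. The 315 include counts that stayed at 0 and counts that lost or gained a call within that limit. Single genes were compared by direction and side of the threshold, and lists by their counts. For single genes, lists and levels, 765 stayed the same, 67 lost a call, 14 gained one, 4 moved and 1 reversed. *Elovl3*, *Cpt1b* and *Otop1* had few counts in all, and *Scx-/-* vascular libraries had at most 152689 counts each.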
